A study of Bos taurus with 12 samples.

Results

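The genes described here make, carry, break down or sense prostaglandins in bovine endometrium, and 10 of them were chosen by name: PTGS1, PTGS2, PTGES, PTGIS, HPGD, SLCO2A1, ABCC4, PTGFR, PTGER2 and PTGER4. Of these, 9 were found by their symbol on the array, through 10 transcripts and 20 probes out of 26323 transcripts and 61333 probes. No probe was matched to ABCC4, a pump that exports prostaglandins, and it was not analysed here. Endometrial biopsies from 12 cows were hybridised in 1 colour, each to its own custom bovine Agilent array. The old females (OF, n = 4, 13 to 14 years old) had never calved, and the young females (YF, n = 4, 4 to 5 years old) had calved once, so that age and parity cannot be told apart between them. All OF and YF were Holstein somatic clones of a single donor cow. The YF were sampled more than a year after calving. Cycles were synchronised with Crestar, and on Day 15 intercaruncular tissue was biopsied in the horn that lay on the side of the corpus luteum. The labels name 4 further animals contemporary cows, also sampled on Day 15, whose age, parity and clone status are not given in the sources used here. The contemporary cow 1111 was set aside by the authors for a divergent phenotype, so 3 contemporary cows entered the comparisons and the value of 1111 is printed beside those of the members.

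Prostaglandins are lipids made from arachidonic acid, which phospholipase A2 frees from membranes and the cyclooxygenases PTGS1 and PTGS2 convert to prostaglandin H2. Terminal synthases then give prostaglandin E2 (PTGES), prostaglandin F2α (aldo-keto reductases such as AKR1B1), prostacyclin (PTGIS) or prostaglandin D2 (PTGDS, HPGDS). In ruminants the endometrium releases prostaglandin F2α in pulses late in the cycle, which ends the life of the corpus luteum, and oxytocin acting on its receptor OXTR takes part in this release. Prostaglandin E2 is known for luteoprotective effects and acts through the receptors PTGER1 to PTGER4.

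Each level below is the log2 of the processed intensity minus that of the 75th percentile of the same array, averaged over the probes of a transcript, so that 0 stands for the 75th percentile and 1 unit for a 2-fold difference. Levels of different genes are read by different probes and are not compared with each other. Arrays had between 71.6% and 74.9% of probes well above background and 0 saturated probes. The arrays lay on 2 slides: slide 1 held 1 OF, 2 YF and the contemporary cow 1111, and slide 2 held 3 OF, 2 YF and the 3 other contemporary cows. In biopsies of whole tissue, fewer cells of a type and less RNA per cell cannot be told apart. Genes of other cell types differed between libraries as well. Of 11 smooth muscle genes, 10 were matched to probes by name. The other, ACTG2, was not matched, though the paper reports it among the genes higher in OF. The mean level of the 10 was 4.99 in OF 2258 and 3.33 in OF 0234. It lay at -0.28 and 0.52 in the other OF, between -0.73 and 0.91 in YF and between -0.13 and 0.32 in the contemporary cows. All 10 were highest in these 2 OF among the 12 animals, as were 5.48% of all transcripts.

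The results turn on PTGES, the inducible synthase that turns prostaglandin H2 into prostaglandin E2, and on PTGFR, the receptor for prostaglandin F2α. Their probes are shown because they settle how much of each gene was read. Both probes of PTGES share a run of 48 of their 60 bases, so they report nearly the same stretch of the transcript, and capitals mark the shared run in the 30 bases printed of each:
PTGES probe 1, bases 3 to 32: ttttggaaccTAACGACCTTCTGAATCCAG
PTGES probe 2, bases 1 to 30: ttttggaacaTAACGACCTTCTGAATCCAG

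PTGFR was read as 2 transcripts with separate probes. The probes of ENSBTAT00000043776 share 59 bases and those of ENSBTAT00000043774 share 33, again in capitals:
ENSBTAT00000043776 probe 1: tCTTCCAAAGCCTGTACTACCAATGTCAAG
ENSBTAT00000043776 probe 2: CTTCCAAAGCCTGTACTACCAATGTCAAGG
ENSBTAT00000043774 probe 1: CCATCAGAGTAACTGAATTTCCCTTCTCAT
ENSBTAT00000043774 probe 2: atcattagaCCATCAGAGTAACTGAATTTC

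The first question was whether endometrial prostaglandin genes differed between OF and YF. PTGES was the member with the clearest difference, and it was lower in OF. PTGES (ENSBTAT00000025912; UMD3.1 chromosome 11, 100143653 to 100155090) had levels of -1.27, -1.10, -1.23 and -1.29 in OF 0233, 0234, 0245 and 2258. In YF it was 0.48 in 1069, -0.43 in 1070, -1.12 in 1072 and 0.06 in 1127. The OF lay within 0.19 of each other, whereas the YF spread over 1.60, and YF 1072 reached into the range of the OF, so the groups overlapped by this animal alone. The 4 OF averaged -1.22 ± 0.09 (SD) and the 4 YF averaged -0.25 ± 0.69 (SD). The log2 difference was -0.97 (SE 0.31), or 1.96-fold. In limma the unadjusted p was 0.0137 and the Benjamini-Hochberg adjusted p over all 19755 transcripts tested was 0.999, and the exact two-sided permutation test gave p = 0.0571.

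The difference in PTGES moved with the slide. On slide 2 the 3 OF averaged -1.22 against 0.27 in the 2 YF, a log2 difference of -1.49, and on slide 1 the single OF lay below both YF by a difference of -0.45 from their mean. With the slide as a block, the log2 difference was -1.12. In the OF with high smooth muscle genes, 2258 and 0234, PTGES was at -1.29 and -1.10, and in OF 0233 and 0245 at -1.27 and -1.23. With OF 2258 and OF 0234 both left out, which leaves 2 OF, the log2 difference was -0.99. The part of smooth muscle content in PTGES was not tested. Of 8 stromal genes, 8 had a lower mean in OF than in YF, 0 of them at an unadjusted p of 0.05, and their mean level lay between 2.37 and 3.07 in OF and between 2.43 and 3.51 in YF. Their part in PTGES was not tested.

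Contemporary cows were compared with OF and with YF in the same way, and these comparisons share the OF and YF animals with the one above. PTGES was higher in the contemporary cows than in OF. Its level was 0.30 in contemporary cow 1068, 1.16 in 1128 and -0.05 in 1129, and all 3 lay above all 4 OF. The log2 difference was 1.69 (SE 0.28), or 3.23-fold, with an unadjusted p of 0.000465 and an adjusted p of 0.518 in limma. The exact two-sided permutation p was 0.0571, the smallest that 3 animals against 4 can give, so this test cannot reach 0.05 here. The contemporary cow 1111, on slide 1, had a level of -0.95, below the other 3 contemporary cows and above every OF. All 3 contemporary cows were on slide 2, and against the 3 OF of that slide the log2 difference was 1.69 as well. The same 8 stromal genes all had a higher mean in the contemporary cows than in OF, with a median log2 difference of 0.50, 1 of them at an unadjusted p of 0.05, and their mean level lay between 3.02 and 3.15 in the contemporary cows.

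Against YF, PTGES had a log2 difference of 0.72 (SE 0.43) in the contemporary cows, with an unadjusted p of 0.130 in limma, and the groups overlapped. On slide 2 alone, this difference was 0.20.

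**Figure D1:**
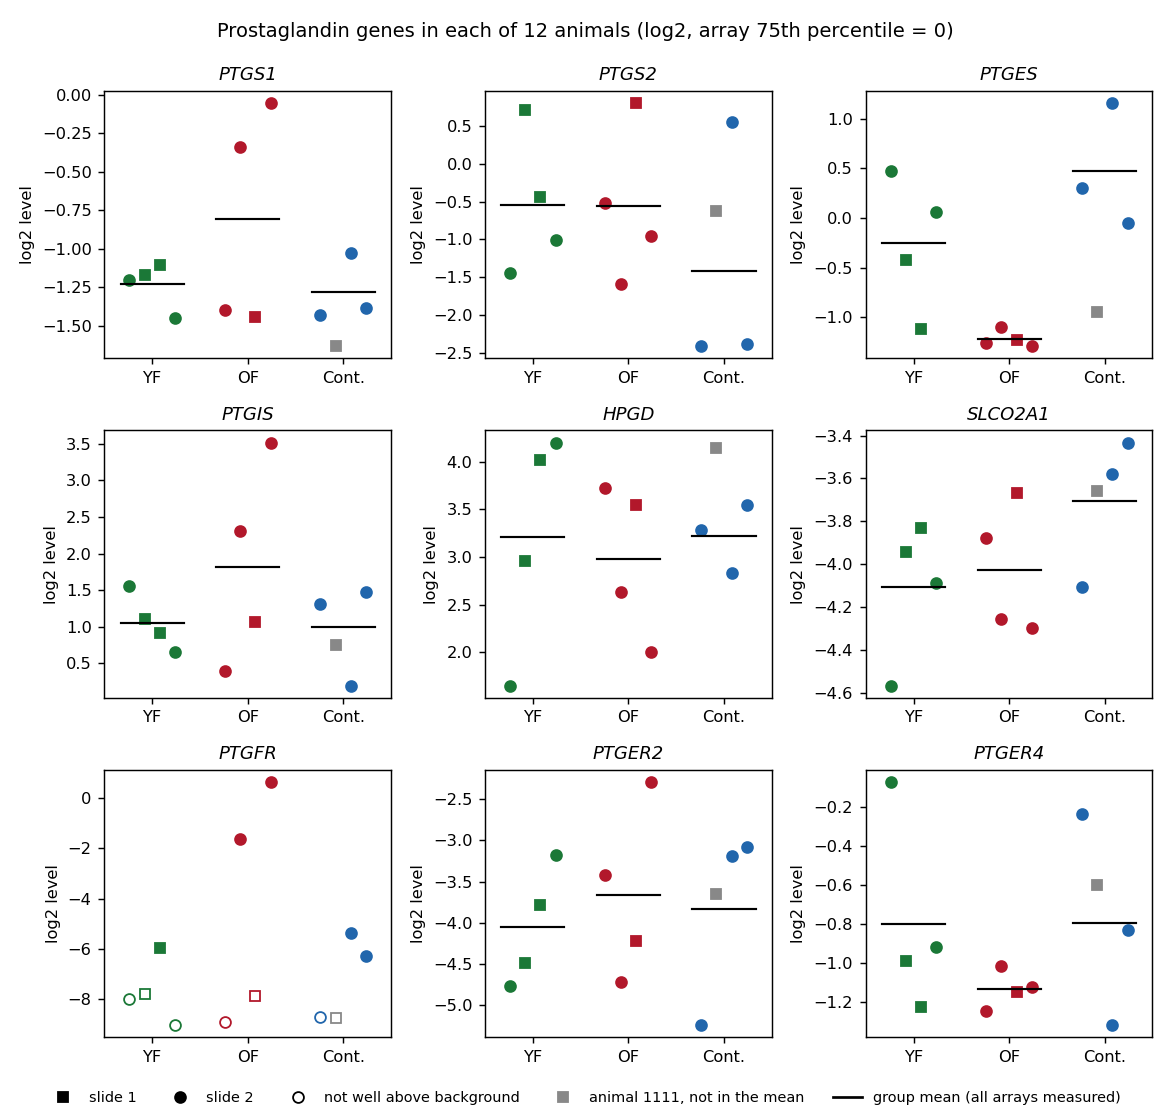
Level of 9 prostaglandin genes in each of 12 animals, on the log2 scale with the array's 75th percentile at 0; squares are slide 1, circles slide 2, open symbols were not well above background, grey is contemporary cow 1111, and bars are group means, drawn where every array of the group was measured. The PTGES levels of the 4 OF lie between -1.29 and -1.10, and the 2 highest levels of PTGS1, PTGIS and PTGFR belong to OF 2258 and OF 0234.

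Across the members, PTGES was the only one that passed an unadjusted p of 0.05 in any of the 3 comparisons, and none passed an adjusted p of 0.05. Of the 8 members tested in OF against YF, 1 was lower and 0 higher at an unadjusted p of 0.05, beside 2.42% of all transcripts tested, and 0 had groups that did not overlap, beside 1.53%. In the contemporary cows against YF these counts were 0 at an unadjusted p of 0.05, beside 3.03%, and 0 without overlap, beside 3.83%. In the contemporary cows against OF they were 1, higher, beside 4.57%, and 1 without overlap, beside 5.79%. Of all transcripts, 0% passed an adjusted p of 0.05 in limma in each comparison. The fold change rank ordering statistics (FCROS) of the study were coded anew and applied to all 26323 transcripts. They called PTGES alone among the members in each comparison, lower in OF than in YF and higher in the contemporary cows than in either. In OF against YF, this version called 757 transcripts higher and 543 lower in OF. The counts the paper reports from its own FCROS are different, with more genes lower than higher in OF. The calls given here are therefore those of the version coded anew. FCROS called 4.94%, 4.23% and 5.4% of all transcripts in OF against YF, contemporary cows against YF and contemporary cows against OF. The median log2 difference of the 8 members was 0.03 in OF against YF, 0.01 in contemporary cows against YF and 0.03 in contemporary cows against OF, against 0.01, -0.02 and -0.04 over all transcripts tested.

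**Figure D2:**
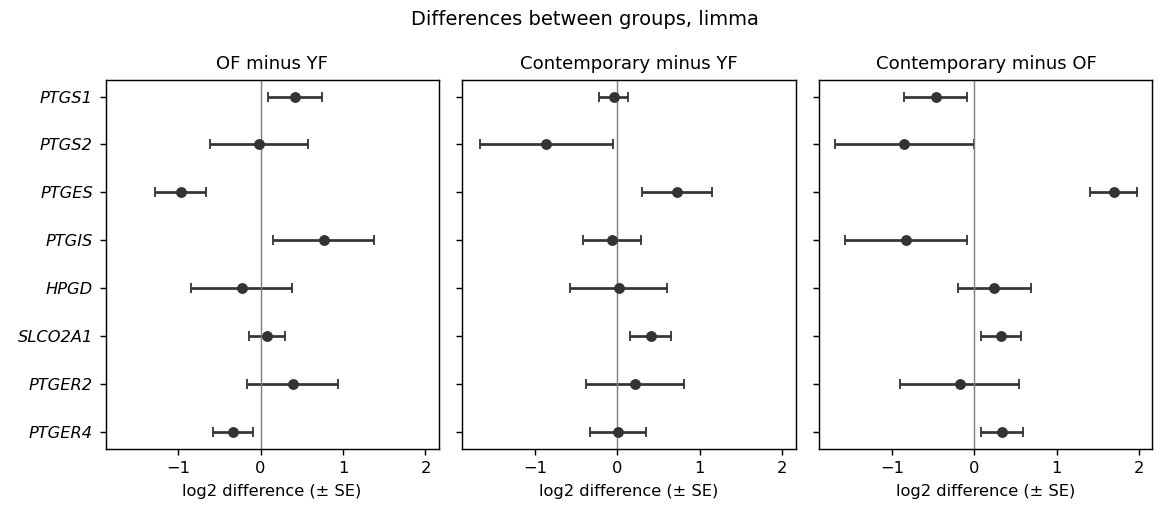
Log2 difference of 8 members in the 3 comparisons, with bars for the standard error from limma. PTGFR was too dim to enter the main fit. PTGES stands at -0.97 in OF minus YF and at 1.69 in contemporary cows minus OF, and no other member has an unadjusted p of 0.05.

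The cyclooxygenases differed in how they varied. PTGS1, the constitutive form (ENSBTAT00000008833; chromosome 11, 93219287 to 93245045), had levels of -1.40, -0.34, -1.44 and -0.05 in OF 0233, 0234, 0245 and 2258. In YF it was -1.20 in 1069, -1.17 in 1070, -1.11 in 1072 and -1.45 in 1127, and it lay at -1.43, -1.03 and -1.38 in the contemporary cows 1068, 1128 and 1129 and at -1.63 in 1111. Only the OF with high smooth muscle genes stood apart. The log2 difference of OF from YF was 0.42 (SE 0.33) with an unadjusted p of 0.231 in limma, and with OF 2258 and OF 0234 both left out it was -0.19.

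PTGS2, the inducible cyclooxygenase (ENSBTAT00000018774; chromosome 16, 69263776 to 69271399), had the largest spread over the 12 animals of the members measured on all arrays (SD 1.09). It was -0.52, -1.59, 0.80 and -0.95 in OF 0233, 0234, 0245 and 2258, and -1.44, 0.71, -0.44 and -1.01 in YF 1069, 1070, 1072 and 1127. The contemporary cows were at -2.41 in 1068, 0.56 in 1128, -2.38 in 1129 and -0.63 in 1111. Every group held animals more than 2 log2 units apart, and the group means differed by far less between OF and YF, with a log2 difference of -0.02 (SE 0.59). The contemporary cows had a log2 difference of -0.87 (SE 0.81) from YF and of -0.85 (SE 0.85) from OF, and the groups overlapped in both comparisons. The probes of PTGS2 share a run of only 5 bases and so read different stretches, and they gave a difference of OF from YF of 0.01 and -0.05. The highest OF and the highest YF were both on slide 1, and with the slide as a block the difference was 0.37.

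PTGIS makes prostacyclin, a vasodilator formed mainly in vessel walls and muscle. PTGIS (ENSBTAT00000023313; chromosome 13, 78319020 to 78368752) had a level of 3.52 in OF 2258 and 2.31 in OF 0234, against 0.39 in OF 0233 and 1.07 in OF 0245. The YF were at 1.55, 1.11, 0.91 and 0.66 in 1069, 1070, 1072 and 1127, and the contemporary cows at 1.31, 0.20, 1.48 and 0.75 in 1068, 1128, 1129 and 1111. The 2 high OF were again those with high smooth muscle genes, and the other OF lay among or below the YF. The log2 difference of OF from YF was 0.76 (SE 0.62) with an unadjusted p of 0.247 in limma, and it was -0.33 with OF 2258 and OF 0234 both left out.

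AKR1B1, the main prostaglandin F2α synthase of bovine endometrium, and PLA2G4A, the phospholipase that frees arachidonic acid, were read as well. AKR1B1 was 5.92, 5.14, 6.06 and 3.26 in OF 0233, 0234, 0245 and 2258 and 3.95, 5.61, 5.43 and 5.80 in YF 1069, 1070, 1072 and 1127, with a log2 difference of -0.10 (SE 0.66). PLA2G4A was 0.02, -1.08, -0.34 and -2.29 in these OF and -1.28, -0.12, 0.02 and -0.06 in these YF, with a log2 difference of -0.56 (SE 0.52). OF 2258 and YF 1069 were the lowest of their groups for both genes, and neither difference exceeded the spread between animals.

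HPGD, which oxidises prostaglandins and so starts their breakdown, and SLCO2A1, the carrier that takes them into cells, showed no group difference beyond the spread between animals. HPGD (ENSBTAT00000027024; chromosome 8, 6642818 to 6680546) was 3.72, 2.64, 3.54 and 2.0 in OF 0233, 0234, 0245 and 2258 and 1.65, 2.96, 4.01 and 4.20 in YF 1069, 1070, 1072 and 1127. The contemporary cows were at 3.28 in 1068, 2.83 in 1128, 3.55 in 1129 and 4.15 in 1111. Its lowest levels were those of YF 1069 and OF 2258, the animals in which the mean level of 10 epithelial genes was also lowest, at 0.28 and -0.59, against values between 1.26 and 2.27 in the 10 others. The part of epithelial content in HPGD was not tested. The log2 difference of OF from YF was -0.23 (SE 0.61).

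SLCO2A1 (ENSBTAT00000001747; chromosome 1, 136435602 to 136528516) was -3.88, -4.26, -3.67 and -4.30 in OF 0233, 0234, 0245 and 2258 and -4.57, -3.94, -3.83 and -4.09 in YF 1069, 1070, 1072 and 1127. In the contemporary cows it was -4.11 in 1068, -3.58 in 1128, -3.43 in 1129 and -3.66 in 1111. All groups overlapped, and the log2 difference was 0.08 (SE 0.22) for OF against YF, 0.40 (SE 0.24) for contemporary cows against YF and 0.32 (SE 0.24) for contemporary cows against OF.

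Among the member receptors, PTGFR was detected in few animals, whereas PTGER2 and PTGER4 were measured in all. PTGFR (ENSBTAT00000043776; chromosome 3, 66383734 to 66445670) was well above background on 5 of the 12 arrays, and each of its probes on 4. The level was 0.62 in OF 2258, -1.65 in OF 0234, -5.35 in contemporary cow 1128, -6.28 in contemporary cow 1129 and -5.95 in YF 1072. In the other 7 animals it was not well above background, with values between -9.03 and -7.81. The levels in OF 2258 and OF 0234 thus lay above those of every other animal, and the remaining OF, 0233 and 0245, were not measured above background. PTGFR was therefore not tested in the main limma fit, and no difference between groups is given for it. It entered limma without the filter on dim probes and entered FCROS, and neither called it. The other transcript, ENSBTAT00000043774 (chromosome 3, 66382018 to 66445648), was well above background in 1 animal, OF 2258, at -2.91.

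PTGER2 and PTGER4 are the receptors of prostaglandin E2 that raise cyclic AMP. PTGER2 (ENSBTAT00000002800; chromosome 10, 11773706 to 11786080) was -3.42, -4.73, -4.22 and -2.29 in OF 0233, 0234, 0245 and 2258, -4.77, -4.49, -3.78 and -3.17 in YF 1069, 1070, 1072 and 1127, and -5.25, -3.19, -3.08 and -3.65 in contemporary cows 1068, 1128, 1129 and 1111. Each group spanned more than 1.5 log2 units, and the log2 difference of OF from YF was 0.39 (SE 0.55).

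PTGER4 (ENSBTAT00000019930; chromosome 20, 33762479 to 33774648) was -1.24, -1.01, -1.15 and -1.12 in OF 0233, 0234, 0245 and 2258 and -0.07, -0.99, -1.22 and -0.92 in YF 1069, 1070, 1072 and 1127. The contemporary cows were at -0.23 in 1068, -1.32 in 1128, -0.83 in 1129 and -0.60 in 1111. As for PTGES, the OF lay close together, with a range of 0.23 against 1.15 in YF. The log2 difference of OF from YF was -0.33 (SE 0.24) with an unadjusted p of 0.207 in limma.

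Other genes of the pathway also had their highest levels in OF 2258 and OF 0234. Of 10 genes listed as prostaglandin receptors, 4 (PTGFR, PTGER1, PTGER3 and PTGIR) were highest in these 2 OF among the 12 animals. The list, all on the array, includes PTGFRN, a regulator of PTGFR that is not itself a prostaglandin receptor. Also highest in these OF were 2 of 13 synthesis genes (PTGS1 and PTGIS) and 1 of 9 genes of the lipoxygenase branch (LTB4R). The counts were 0 of 4 inactivation genes and 0 of 2 transporters, and the share of all transcripts was 5.48%. PTGFR and PTGER1 were each well above background on 5 of the 12 arrays, and PTGER1, at -6.21 and -6.32 in these OF, was only slightly above the next animal, at -6.49. PTGER3, a receptor of prostaglandin E2 that contracts smooth muscle, was 0.08 in OF 2258 and -2.48 in OF 0234, and at most -4.07 in the others. It had 3 transcripts on the array, and these values are of the transcript with the highest mean level alone. PTGIR, the prostacyclin receptor, was -3.38 in OF 2258 and -4.88 in OF 0234, and at most -6.30 in the others, of which only some were measured above background. The part of smooth muscle content in these levels was not tested.

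**Figure D3:**
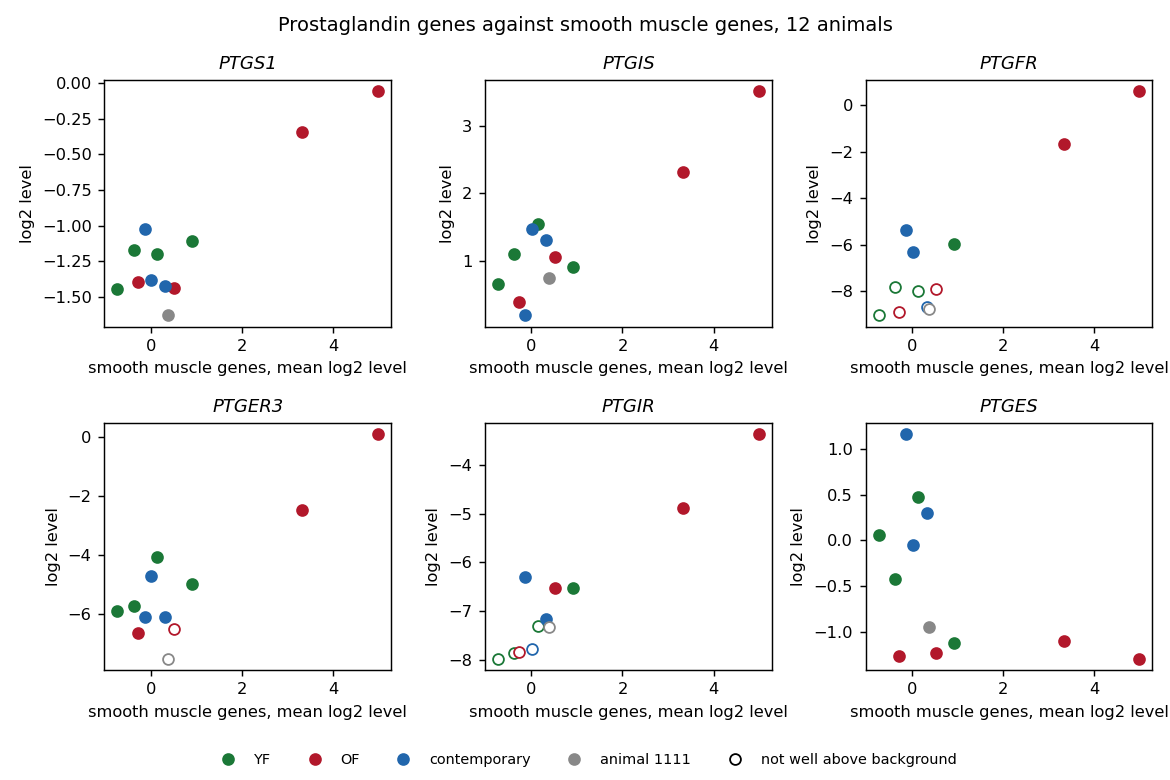
Level of 6 prostaglandin genes against the mean level of 10 smooth muscle genes in each of 12 animals, both on the log2 scale; colours give the group, grey is contemporary cow 1111, and open symbols were not well above background. OF 2258 and OF 0234, at 4.99 and 3.33 on the horizontal axis, hold the 2 highest levels of each gene shown except PTGES.

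Other genes of the pathway were counted in lists. In OF against YF, 13 synthesis genes were tested, of which 2 were lower and 0 higher at an unadjusted p of 0.05 in limma (PTGES and HPGDS), with a median log2 difference of -0.02. The share of all transcripts past that threshold, higher or lower, was 2.42%, and in the comparisons of contemporary cows with YF and with OF it was 3.03% and 4.57%. None of 4 inactivation genes, 2 transporters and 7 receptors passed that threshold, and 1 of 8 lipoxygenase genes did (LTC4S, lower), with a median of -0.33. The 7 genes counted as receptors here and below include PTGFRN. In the contemporary cows against YF, 0 of 13 synthesis genes, 1 of 4 inactivation genes (PTGR1, lower), 0 of 2 transporters, 0 of 7 receptors and 1 of 8 lipoxygenase genes passed (CYSLTR2, higher). In the contemporary cows against OF, 1 of 13 synthesis genes (PTGES, higher), 1 of 4 inactivation genes (PTGR1, lower), 0 of 2 transporters, 0 of 7 receptors and 1 of 8 lipoxygenase genes passed (LTC4S, higher). None of them passed an adjusted p of 0.05.

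HPGDS, the prostaglandin D2 synthase of mast cells and other blood-borne cells, was lower in OF than in YF. It was -6.17, -6.97, -6.85 and -7.07 in OF 0233, 0234, 0245 and 2258. In YF 1069, 1070, 1072 and 1127 it was -5.33, -6.09, -5.94 and -5.87. The contemporary cows were at -7.17 in 1068, -5.40 in 1128, -5.83 in 1129 and -6.50 in 1111. They overlapped both OF and YF, and 1068 lay below every OF. HPGDS was well above background on all 12 arrays but dim. For PTGER3, a level of -6.51 in OF 0245 was not well above background, whereas -6.66 in OF 0233 was. All OF lay below all YF for HPGDS, and 1.53% of all transcripts tested had groups without overlap in either direction. The log2 difference of OF from YF was -0.96 (SE 0.25) with an unadjusted p of 0.0042 and an adjusted p of 0.999 in limma. The exact two-sided permutation p was 0.0286, the smallest that 4 animals against 4 can give. On slide 1, which held 1 OF, the difference was -0.84, and on slide 2 it was -1.14. Of 5 mast cell markers, 4 were matched to probes by name, 1 of them (MS4A2) not well above background in any animal. CPA3, a mast cell protease, lay between -6.80 and -5.67 in OF and between -4.87 and -4.21 in YF, and HDC, which makes histamine, between -5.28 and -3.86 and between -4.16 and -3.76. KIT, a growth factor receptor that other cells carry too, went the other way, at -1.89 to -1.06 in OF and -2.39 to -1.23 in YF. The mean level of the 4 lay between -5.25 and -5.01 in OF, between -4.83 and -4.52 in YF and between -5.18 and -4.17 in the contemporary cows. Their part in HPGDS was not tested.

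LTC4S, which makes leukotriene C4, was -1.59, -1.78, -1.52 and -2.27 in OF 0233, 0234, 0245 and 2258 and -0.75, -1.46, -1.34 and -1.32 in YF 1069, 1070, 1072 and 1127. All OF again lay below all YF, with a log2 difference of -0.57 (SE 0.23), but OF 0245 and YF 1070 were close. On slide 1, which held 1 OF, the difference was -0.12, and on slide 2 it was -0.85. Groups without overlap, in either direction, made up 1.53% of all transcripts tested. In limma its unadjusted p was 0.0337 and its adjusted p 0.999. The contemporary cows, at -1.44, -0.84 and -1.12, lay above all OF, with a log2 difference of 0.65 (SE 0.24). In that comparison, 5.79% of all transcripts tested had groups without overlap. The contemporary cow 1111, at -1.97, lay below 3 of the 4 OF.

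PTGR1, a reductase that acts after HPGD, was lower in the 3 contemporary cows than in every OF and YF. It was 1.27 in 1068, 1.08 in 1128 and 0.54 in 1129, below every YF, between 1.46 and 1.81, and every OF, between 1.55 and 1.81. The log2 difference was -0.69 (SE 0.21) from YF and -0.72 (SE 0.21) from OF, with unadjusted p values of 0.0110 and 0.0100 in limma. The adjusted p values were 0.9999 and 0.912. The exact two-sided permutation p was 0.0571 in both, the smallest that 3 animals against 4 can give. Of all transcripts tested, 3.83% had no overlap with YF and 5.79% none with OF. The contemporary cow 1111 was at 1.67, within the range of OF and YF.

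OXTR, the oxytocin receptor, was higher in 3 of the 4 OF than in every YF, with a log2 difference of 2.17, an unadjusted p of 0.0233 and an adjusted p of 0.999 in limma. The exact two-sided permutation p was 0.0857. Its highest OF were 2258, at 1.84, and 0234, at -0.22, the animals with high smooth muscle genes. OF 0245 was at -0.64, also above every YF, and the mean level of its smooth muscle genes was 0.52. The level of OXTR in the contemporary cows was -4.98 in 1068, 1.18 in 1128, -3.52 in 1129 and -4.81 in 1111. These fell on both sides of the YF. In 1128 the mean level of the smooth muscle genes was -0.13. The part of smooth muscle content in OXTR was not tested.

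**Figure D4:**
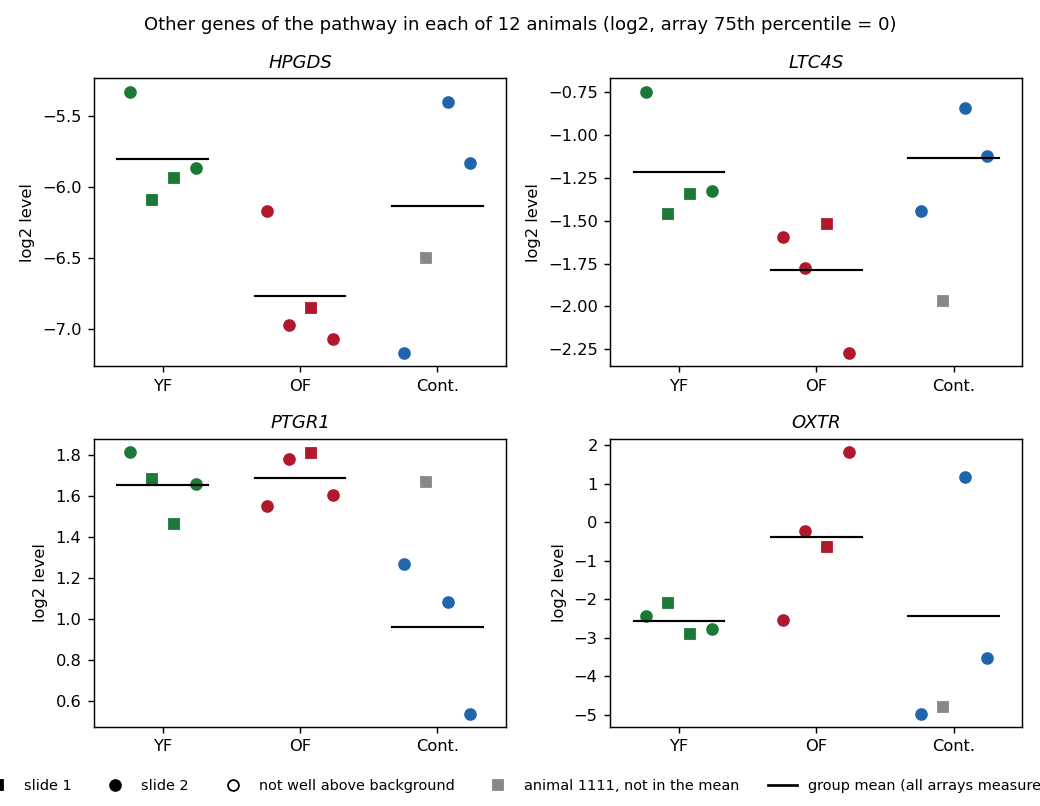
Level of HPGDS, LTC4S, PTGR1 and OXTR in each of 12 animals, on the log2 scale with the array's 75th percentile at 0; squares are slide 1, circles slide 2, grey is contemporary cow 1111, and bars are group means. All 4 OF lie below all 4 YF for HPGDS and LTC4S, and the 3 contemporary cows in the comparisons lie below all OF and YF for PTGR1.

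The genes whose levels followed the most variable members were looked up among 16615 named transcripts well above background on all 12 arrays. They were picked as the highest correlations, which include differences between groups and slides, and carry no test. For PTGS2 they were CDH16, a cadherin (Pearson r = 0.94, Spearman rho = 0.97, and r = 0.89 without the 2 animals farthest from the median of PTGS2), BACE2 (r = 0.90) and A1BG (r = 0.89). For PTGIS they included FHL3 (r = 0.96) and IRAG1 (r = 0.96), and without the 2 farthest animals r was 0.81 and 0.78. For PTGER2 they were DNAJA1 (r = 0.91), CTNNB1 (r = 0.90) and SLAIN1 (r = 0.90). Each r is over the same 12 arrays.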

How the data were processed

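Per the file headers, the authors deposited for each of 12 arrays the Cy-3 intensity of every spot from Agilent Feature Extraction 10.7.3.1 after its own background correction, with no scaling between arrays; the detection flags, deposited as 0 or 1, are of another kind and served as filters. Here log2 was taken and the array's 75th percentile subtracted. The 1319 control spots were dropped, as were 66 probes flagged as outliers on any array, and probes were averaged per transcript. Signal over background and the number of arrays limit the precision. Positions are those of the array's annotation (UMD3.1), and 12567 transcripts were named through RefSeq accessions (ARS-UCD2.0), 9512 by the array and 4244 not.

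Groups were compared with limma 3.58.1 (R 4.3.3), two-sided, on transcripts detected by at least 1 probe on all arrays of 1 group, using only the groups compared. Exact permutation tests used scipy 1.17.1. FCROS trimmed 0.25 of ranks at each end and called f-values beyond 0.025 and 0.975 with a fold of 1.5. Tested on simulated OF and YF data in which 200 transcripts were given a log2 change of 2, limma found 85.2% of them. The simulated noise was independent between transcripts, and no member tested had a log2 difference as large as 2. Smaller changes were not simulated.

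The members, the gene lists and the tests were chosen with earlier results of these data known. All members are named. For the 3 most variable members measured on all arrays, the 3 named genes with the highest Pearson r are given, of which 1 is not reported here. A gene's value is that of its transcript with the highest mean level. Alternatives were quantile normalization, median centring, normexp with an offset of 50, the brightest probe, no filter on dim probes, array weights, a fit of all 3 groups together, the slide as a block, contemporary cow 1111 included, FCROS and each animal left out; slide 2 alone, and OF 2258 and OF 0234 both left out, were added after the data were seen.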

Additional observations from a re-analysis of the deposited data

How the results depend on the processing

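No member passed an adjusted p of 0.05 in limma under any alternative. PTGES kept its direction in all 3 comparisons under every alternative. In OF against YF its log2 difference ranged from -1.49 to -0.61 over 18 alternatives, each with an unadjusted p between 0.000725 and 0.0498 and an adjusted p between 0.440 and 1.0, and in contemporary cows against OF from 1.34 to 1.98 over 18, with an adjusted p between 0.0559 and 0.992. In contemporary cows against YF it ranged from 0.20 to 1.32, and array weights gave the 1 unadjusted p under 0.05 among 17. PTGFR was not well above background on 7 arrays, OF 0233 and OF 0245 among them, so no difference is given for it. No paired analysis was possible because the groups share no replicate numbers.

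Counts changed as follows. FCROS called 1300, 1113 and 1422 transcripts and 1 member in OF against YF, contemporary cows against YF and contemporary cows against OF, where limma called 0. In limma, transcripts called in contemporary cows against YF were 1 after quantile normalization, 2 with all 3 groups in 1 fit, 1 with array weights, 4 with cow 1111 included and 0 to 1 with an animal left out; against OF they were 26 with array weights, 2 with cow 1111 and 0 to 1 with an animal left out. Members without overlap in OF against YF were 0 to 2 with an animal left out. They were 2 on slide 2 alone and 1 without OF 2258 and OF 0234. With fewer animals, more of all transcripts were without overlap as well. On slide 2 alone, 1613 of 20334 transcripts tested lay above and 1276 below. Without OF 2258 and OF 0234 these were 1352 and 1086 of 20103, and without OF 0233 they were 785 and 366 of 19802. With all animals they were 184 and 118 of 19755. In contemporary cows against YF, members without overlap were 1 after normexp and 0 to 1 with an animal left out. Against OF they were 1 to 3 with an animal left out. Of all transcripts, 255 lay above YF and 312 below after normexp, of 19993 tested. Without contemporary cow 1068, 954 lay above YF and 1720 below, of 20276. Without that cow, 1785 lay above OF and 2661 below, of 20246.

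Of 424 log2 differences of the 8 members tested, 374 kept their sign and 50 turned it; the cause was not tested. In OF against YF, leaving out an animal gave -0.47 to 0.40 for PTGS2, -0.75 to 0.10 for HPGD, -0.072 to 0.17 for SLCO2A1 and -0.067 to 0.74 for PTGER2. PTGS2 was 0.37 with the slide as a block and 0.21 on slide 2 alone. Without OF 2258 and OF 0234, PTGS1 was -0.19, PTGS2 0.69, PTGIS -0.33 and HPGD 0.43. Array weights gave -0.19 for SLCO2A1 and -0.44 for PTGER2. In contemporary cows against YF, leaving out an animal gave -0.17 to 0.026 for PTGS1, -0.30 to 0.34 for PTGIS, -0.50 to 0.35 for HPGD, -0.17 to 0.92 for PTGER2 and -0.27 to 0.27 for PTGER4. The slide as a block and slide 2 alone both gave 0.044 for PTGS1 and -0.30 for PTGER4. Array weights gave 0.033 for PTGS1, -0.39 for HPGD and -0.092 for PTGER4, and the brightest probe gave -0.010 for HPGD. In contemporary cows against OF, leaving out an animal gave -0.081 to 0.49 for HPGD and -0.56 to 0.53 for PTGER2. Without OF 2258 and OF 0234, PTGS1 was 0.14, PTGIS 0.26 and HPGD -0.41, and array weights gave 0.82 for PTGS2, 0.96 for PTGER2 and -0.033 for PTGER4.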
